A study of Mus musculus with 8 samples.

Results

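The Ly49 receptors are a family of surface proteins encoded by the Klra genes, and they are followed here in whole lung of mice that overexpress Fra-2, an AP-1 transcription factor made by Fosl2. The members were 10 genes chosen by their difference between transgenic and wild-type lung in an earlier look at the same arrays: Klra1, Klra2, Klra4, Klra7, Klra8, Klra9, Klra16, Klra17, Klra22 and Klra23. Every array spot that carries one of these symbols in the platform annotation was kept, which gave 20 spots of 31465 with a gene symbol and 62976 in all. Because this comparison chose the members, their differences are given as a description, with no p-value, and counts of members past a threshold are not evidence of a difference. The 4 wild-type mice and the 4 mice labelled Fra-2 over-expressing (Fra-2 TG) were all C57BL/6 and 8 weeks old, and each lung was read on 1 single-colour array. The labels give no sex, litter or treatment for the animals and do not name the promoter that drives the transgene. Levels are log2 normalised intensities as deposited by the authors. A median over all spots, 4.74, serves as a floor for dim signals.

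Ly49 receptors are lectin-like proteins that sit as dimers on natural killer cells and on some T cells and myeloid cells, and they bind major histocompatibility complex (MHC) class I molecules on other cells. Inhibitory members carry a signalling motif in their tail that recruits phosphatases and holds the natural killer cell back, while activating members lack it and signal through the adaptor protein made by Tyrobp. The genes lie side by side in the natural killer gene complex, arose by repeated duplication, and differ in number and kind between mouse strains. Klra16, Klra22 and Klra23 are names given to genes described in strains other than C57BL/6, so spots with these symbols may read near-identical genes of the C57BL/6 cluster. A spot is therefore reported singly, and its symbol names the sequence it was annotated to, not a transcript shown to be read by it alone. In whole tissue, fewer cells of a type and less RNA per cell cannot be told apart.

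Upstream sequence was available from RefSeq (GRCm38.p6) for 7 of the 10 members. It is shown so that stretches shared by several members can be seen directly. The longest run of letters common to at least 5 of these genes within the 250 bases before an annotated start was 15 bases long and was found in Klra2, Klra4, Klra8, Klra9 and Klra17. In the lines below it stands in capitals with 55 bases before it and 25 after it, all on the minus strand and written 5′ to 3′.
Klra8, chr6:130129943-130130037: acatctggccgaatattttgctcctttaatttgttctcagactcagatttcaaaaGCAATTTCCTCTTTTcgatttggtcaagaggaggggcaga
Klra4, chr6:130067315-130067409: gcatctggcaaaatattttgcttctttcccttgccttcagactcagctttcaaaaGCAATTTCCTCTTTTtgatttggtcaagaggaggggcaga
Klra9, chr6:130193115-130193209: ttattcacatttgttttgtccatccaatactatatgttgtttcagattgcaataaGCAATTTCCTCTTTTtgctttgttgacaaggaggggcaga
Klra7, chr6:130233376-130233470: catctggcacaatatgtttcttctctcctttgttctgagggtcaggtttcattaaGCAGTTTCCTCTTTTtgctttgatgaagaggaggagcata
Klra2, chr6:131247398-131247492: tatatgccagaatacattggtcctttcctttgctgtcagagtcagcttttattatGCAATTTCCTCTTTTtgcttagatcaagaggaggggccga
Klra17, chr6:129876711-129876805: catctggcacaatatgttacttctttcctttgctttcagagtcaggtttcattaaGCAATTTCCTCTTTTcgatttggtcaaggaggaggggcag

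The run in Klra7 differs by the substitution A4G, counted from 1 at the first capital, and no copy with at most 1 mismatch was found in the window of Klra1 or in the other annotated window of Klra7. Over all annotated promoters the exact run, GCAATTTCCTCTTTT on either strand, was present in 10 of 32851 windows of that length (0.0304%). Of these 10 windows, 8 belonged to Klra genes. Over the 95 bases shown, Klra8 and Klra4 were identical at 87.4% of positions with no gaps allowed. The other pairs shown were identical at 48.4% to 78.9%, and Klra9 reached at most 58.9% with any of them. Inserted or missing single bases shift some of the other windows against each other, so no order of similarity is given for them. The run was found in Klra4, Klra8 and Klra9, which were lower in transgenic lung, and in Klra2 and Klra17, described below. A run sought in at least 5 of these 7 genes had to include some that were not lower without overlap. Its presence therefore says nothing about the difference between the groups. The AP-1 recognition sequence TGANTCA was absent from the windows of all 7 members with sequence and present in 6.75% of all windows, which says only that these letters are not there.

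Among the activating receptors, the bright spots of Klra8 and Klra4 had the widest gaps between the groups. Klra8 encodes Ly49H, the receptor that lets C57BL/6 natural killer cells recognise cells infected with mouse cytomegalovirus. Its brightest spot stood at 8.93, 9.22, 9.53 and 9.69 in wild-type mice 1 to 4 and at 5.27, 5.84, 5.44 and 5.52 in transgenic mice 1 to 4. All 4 transgenic values lay more than 3 log2 units under the lowest wild-type value. Wild-type lung averaged 9.34 ± 0.34 and transgenic lung 5.52 ± 0.24 (SD, n = 4 each), a difference of -3.83 (SE 0.20), or 14.2-fold. A second bright Klra8 spot read 8.40, 9.33, 9.64 and 9.37 in wild-type mice and 4.80, 5.24, 5.43 and 5.26 in transgenic mice, a difference of -4.00 (SE 0.28), or 16-fold. On both bright Klra8 spots the groups were far apart, with differences that lay within 1 SE of each other. The third Klra8 spot was dim, with means of 4.64 and 3.44, both under the floor, so no fold is given for it.

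Klra4 encodes Ly49D, another activating receptor, and had a single spot. Its levels were 8.74, 8.92, 9.39 and 9.55 in wild-type mice and 6.14, 5.99, 6.22 and 6.86 in transgenic mice, with no overlap. The difference was -2.85 (SE 0.25), or 7.19-fold. Klra16, the symbol for Ly49P, was read by 3 spots of unequal brightness. The brightest gave 8.72, 9.17, 9.38 and 9.54 against 6.58, 6.99, 6.55 and 7.17, a difference of -2.38 (SE 0.22), or 5.20-fold. A dimmer one gave means of 5.57 ± 0.22 and 4.19 ± 0.35 (SD, n = 4 each), with all 4 transgenic values under the floor, at least 1.78-fold. The dimmest had means of 4.13 and 3.72, both beneath the floor, with overlapping values.

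Klra23, the symbol for the activating receptor Ly49W, had 3 spots above the floor in both groups. Their wild-type means were 8.63, 7.97 and 7.47 and their transgenic means 6.42, 5.92 and 5.25. In each of the 3 the groups did not overlap, and the differences were close to each other at -2.21 (SE 0.23), -2.05 (SE 0.27) and -2.21 (SE 0.25), or 4.61-, 4.14- and 4.64-fold. Over the 4 symbols of activating receptors, 8 of 10 spots had a mean over all arrays at or above the floor, 7 of them in both groups. All 8 were lower in transgenic lung without overlap, beside 2.57% of all spots with a symbol, and their median difference was -2.30. As the members were chosen on this contrast, the count describes the choice. The role is that of the symbol, and which C57BL/6 genes the Klra16 and Klra23 spots read was not checked.

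**Figure D1:**
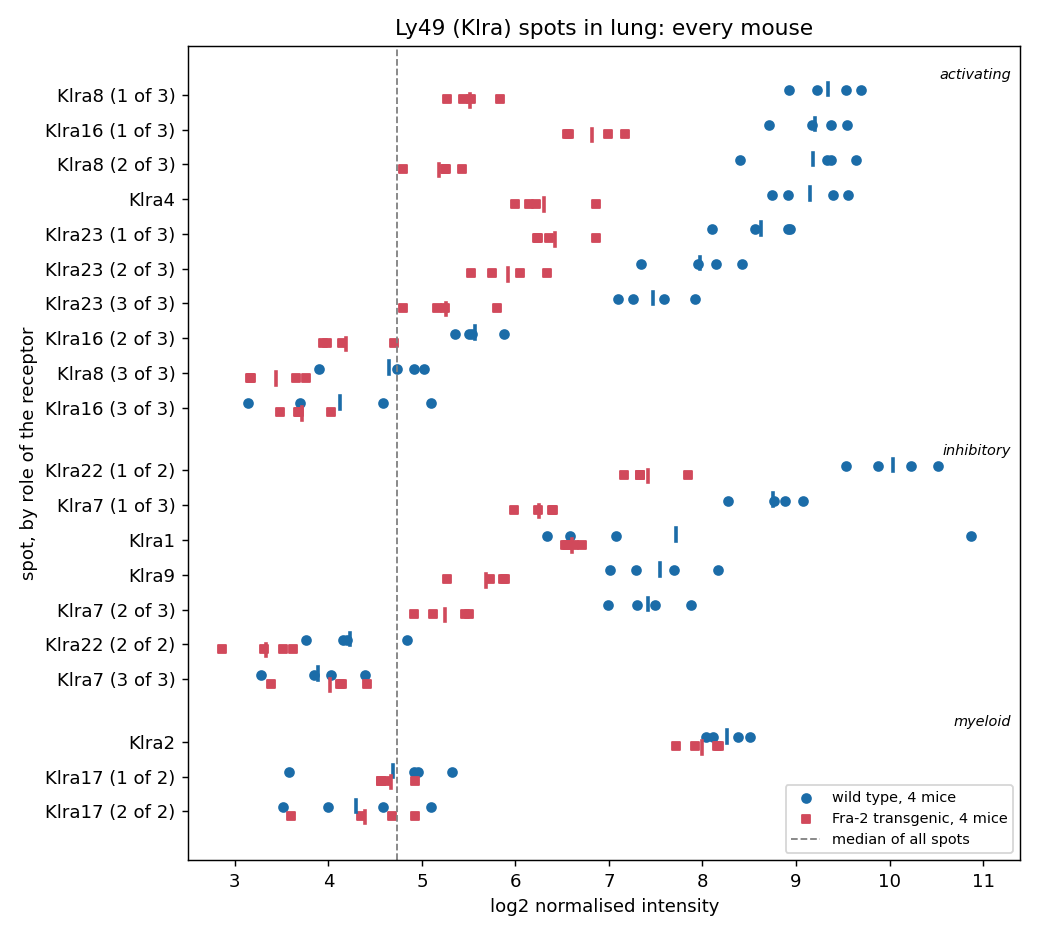
Each row is 1 spot of a member gene, grouped by the known role of the receptor its symbol names and ordered by wild-type mean. The horizontal axis is log2 normalised intensity. Circles are the 4 wild-type mice and squares the 4 transgenic mice. Short vertical lines are the group means and the dashed line the median of all spots (4.74). Bright spots of activating and inhibitory receptors other than Klra1 sit clearly lower in transgenic mice. The groups overlap for Klra2, Klra17 is too dim to compare, and 1 wild-type mouse stands alone for Klra1 at 10.88.

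Among inhibitory receptors, the widest gap was on a spot with the symbol Klra22 (Ly49V), which RefSeq lists as a synonym of Klra1. It read 9.53, 9.88, 10.23 and 10.52 in wild-type mice and 7.33, 7.33, 7.17 and 7.85 in transgenic mice. The lowest wild-type mouse was above the highest transgenic mouse, and the difference was -2.62 (SE 0.24), or 6.15-fold. The other Klra22 spot was under the floor in both groups (means 4.24 and 3.33).

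Klra7 encodes Ly49G, an inhibitory receptor found on a large share of natural killer cells. Its brightest spot read 8.27, 8.77, 8.89 and 9.08 in wild-type mice against 5.98, 6.24, 6.40 and 6.39 in transgenic mice, a difference of -2.50 (SE 0.20), or 5.65-fold. A second spot, annotated to a different transcript, read 6.99, 7.30, 7.50 and 7.87 against 5.12, 4.92, 5.50 and 5.46, a difference of -2.17 (SE 0.22), or 4.49-fold. Neither spot showed any overlap of the groups. The third Klra7 spot stayed under the floor on all 8 arrays, with means of 3.88 and 4.02.

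Klra9 encodes Ly49I, an inhibitory receptor for MHC class I, and had 1 spot. It read 7.29, 7.70, 8.17 and 7.01 in wild-type mice and 5.72, 5.27, 5.89 and 5.86 in transgenic mice, a difference of -1.86 (SE 0.27), or 3.62-fold, without overlap. Wild-type mouse 4 was the lowest of its group for Klra9, whereas it was the highest for Klra8, Klra4, Klra22 and Klra7 by their brightest spots.

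The spot annotated to Klra1, which encodes the inhibitory receptor Ly49A, did not follow this picture. Wild-type mice 1 to 3 read 6.58, 6.34 and 7.08, wild-type mouse 4 read 10.88, and the transgenic mice read 6.55, 6.72, 6.53 and 6.63. The transgenic values lay within the range of wild-type mice 1 to 3. The difference of -1.11 (SE 0.91) rested on wild-type mouse 4: without it the means were 6.67 and 6.61, a difference of -0.06. The Klra22 spot, whose symbol is now placed with Klra1, had no such outlying mouse.

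Klra2 and Klra17 encode Ly49B and Ly49Q, inhibitory members known from myeloid cells and, for Ly49Q, plasmacytoid dendritic cells. Klra2 was well above the floor, at 8.04, 8.51, 8.38 and 8.11 in wild-type mice and 7.92, 7.72, 8.16 and 8.17 in transgenic mice. The groups overlapped, and the difference was -0.27 (SE 0.17), or 1.20-fold. Klra17 was dim on both of its spots, with wild-type means of 4.70 and 4.30 and transgenic means of 4.67 and 4.39, so its level could not be compared between the groups at this brightness.

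Of the 20 member spots, 14 had a mean at or above the floor, and 6 lay under it in both groups. In 14 of the 20 every transgenic value was under every wild-type value, against 2.57% of all spots with a symbol. These were 12 of the brighter spots and 2 under the floor in both groups, the dimmest Klra8 and Klra22 spots. At an adjusted p under 0.05 in the limma fit over all these spots, 10 of the 20 were called lower, against 0.0667%. Since the members were selected on this contrast, these counts and shares describe the choice and carry no further weight. The median difference over the 20 spots was -1.95, beside 0.02 over all spots with a symbol, and the spots above the floor in both groups had a median of -2.21. With both arrays numbered 4 left out, the median over the 20 was -2.06 and the count without overlap was 16. Groups of fewer mice separate more easily by chance, so that count is not set beside the 2.57%. In that setting 6 member spots were called lower, of 12 called lower over all 31465 spots. With wild-type mouse 3 left out 6 member spots were called as well, of 13 called lower.

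**Figure D2:**
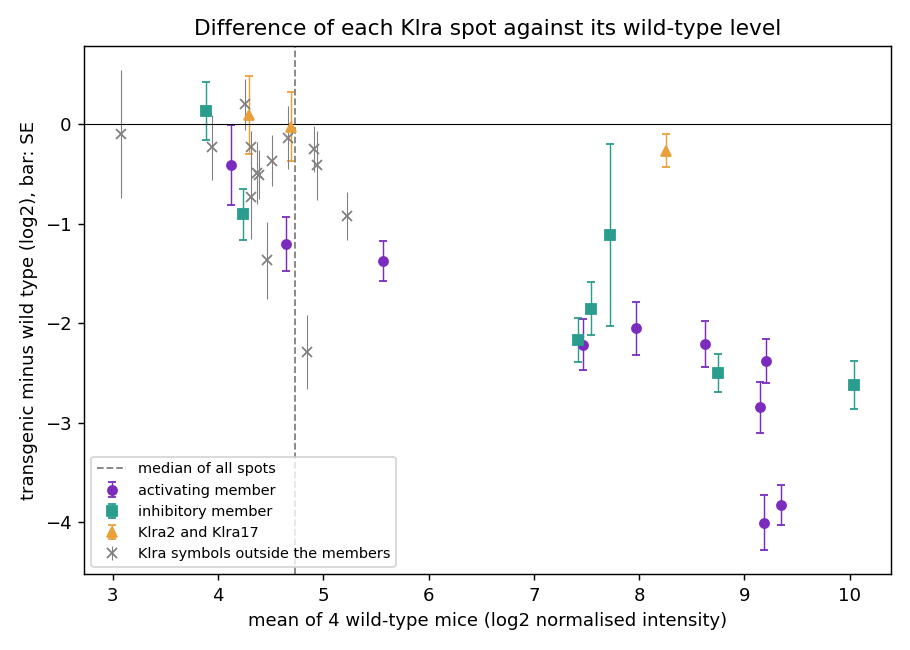
Each point is 1 Klra spot; the horizontal axis is its mean over 4 wild-type mice (log2 normalised intensity), the vertical axis is the transgenic minus wild-type difference (log2), and bars are the moderated standard error. The spots with wild-type means from 7.41 to 10.04 lie between -1.11 and -4.00 except Klra2 at -0.27, while most spots near or under the floor (dashed line) lie closer to 0, with Klra6 an exception at -2.29.

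The annotation holds 14 further spots for 4 Klra symbols outside the members. Klra5, which encodes Ly49E, had 11 of them, and the group means ran from 3.94 to 4.94 in wild-type and from 3.09 to 4.66 in transgenic lung. The values sat around the floor, and 9 of the 11 Klra5 spots had both means under it. Klra6 (Ly49F) read 4.82, 4.92, 5.12 and 4.54 in wild-type mice and 2.10, 3.00, 1.70 and 3.46 in transgenic mice, just above the floor in one group and under it in the other. Klra33, listed by RefSeq as a synonym of Klra4, gave means of 5.23 and 4.30 without overlap, with all 4 transgenic values under the floor. Klra10 was under the floor on all 8 arrays.

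How closely the spots follow each other was read from deviations of each mouse from its own group mean, which leaves the group difference out. Over the 91 pairs of the 14 brighter member spots the median Pearson correlation of these deviations was 0.55 (8 arrays with 6 free deviations; values from 1 array share its RNA and hybridisation, and no test is given). The closest pairs joined different symbols: Klra22 with Klra23 at 0.95, Klra16 with Klra23 at 0.93, Klra22 with Klra4 at 0.93 and Klra23 with Klra4 at 0.91, each by the brightest spot. Pairs of spots with the same symbol had a median of 0.76 over 6 pairs (0.38 to 0.85). Pairs of different symbols had 0.69 over 49 pairs (-0.18 to 0.95) once Klra1, Klra2 and Klra9, whose pairs were lower, were set aside after their values were seen, so these medians are not a comparison of like with unlike symbols. The pairs with Klra1 had a median of 0.45 (13 pairs) and those with Klra2 0.33 (12 pairs). Klra9 had a median of 0.12 over 11 pairs, while its deviations correlated at 0.80 with those of Klra2.

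The shared movement was followed mouse by mouse in the 11 spots left when Klra1, Klra2 and Klra9 are set aside. As this was done after their values were seen, some agreement among the 11 follows from the choice. Wild-type mouse 1 was the lowest of its group in 10, with a mean deviation of -0.46. Wild-type mice 3 and 4 were the highest in 5 and 6 spots. In the transgenic group mouse 1 was the lowest in 6 and mouse 4 the highest in 5, with mean deviations of -0.24 and 0.24. Transgenic mice 2 and 3 were the highest in 3 spots each. Without wild-type mouse 1 the median correlation over the 91 pairs was 0.31, so a good part of the agreement rests on that mouse.

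**Figure D3:**
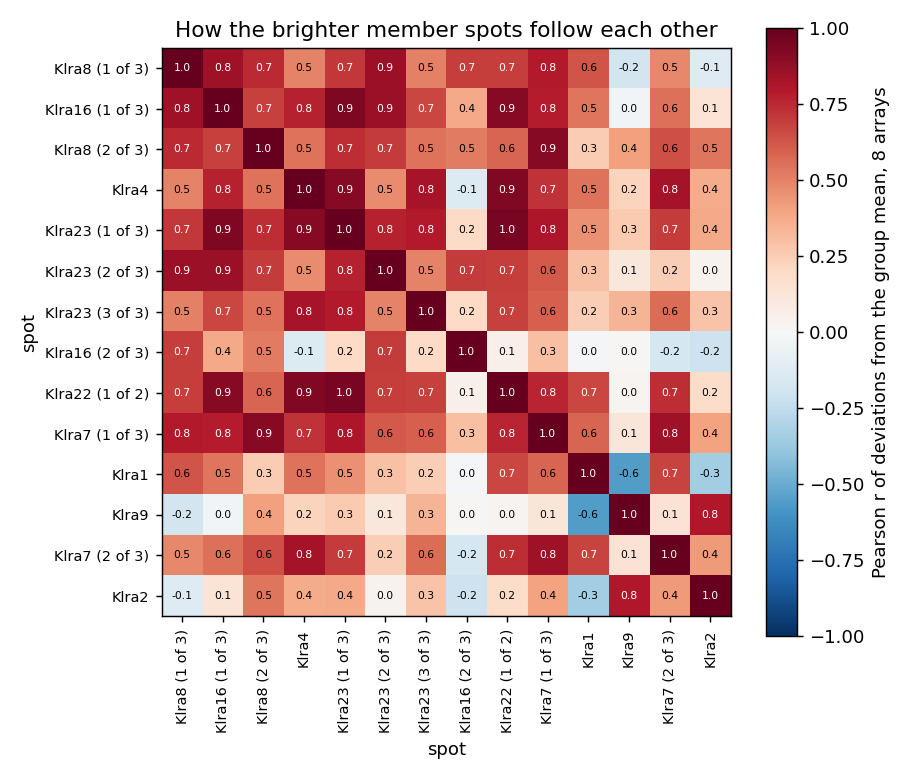
Both axes list the 14 member spots with a mean at or above the median of all spots, and each cell gives the Pearson correlation, over 8 arrays, of deviations from the group mean. Most spots of activating and inhibitory receptors form a red block with Klra22 and Klra23 at 0.95, while Klra1, Klra2, Klra9 and the dimmer Klra16 spot follow the others less, and Klra9 and Klra2 follow each other at 0.80.

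Genes of the same cells and of the same pathway, which were not members, were tested. Their lists were written with earlier results of these data known, so these tests are not independent of that knowledge. The genes are counted by the brightest spot of each, and 0.197% of all 20863 genes passed a limma adjusted p under 0.05 in either direction. Of 20 natural killer cell genes, 2 fell and 0 rose (before adjustment, limma p was under 0.05 for 10 lower genes and 1 higher gene). The higher gene was Itga2, named after its values were seen, at 5.65 ± 0.10 and 6.27 ± 0.49 (SD, n = 4 each). It differed by 0.62 (SE 0.23, limma adjusted p = 0.488). Gzma, a protease of cytotoxic granules, read 12.56, 13.30, 13.49 and 12.52 in wild-type mice and 8.26, 8.75, 9.18 and 9.79 in transgenic mice, and fell 15.7-fold (difference -3.97, SE 0.36, limma adjusted p = 0.00805). Ncr1, which encodes the triggering receptor NKp46, fell from 6.21 ± 0.27 to 4.08 ± 0.44 (difference -2.12, SE 0.24, limma adjusted p = 0.0159), at least 2.77-fold because all 4 transgenic values were under the floor. The Ncr1 call was lost when any 1 array other than transgenic mouse 3 was left out, with adjusted p up to 0.0782. Both calls were lost when mice of the same number were fitted as a block (limma adjusted p = 0.0806 for Gzma and 0.155 for Ncr1). The list had a median difference of -0.84, with 15 of 20 negative, beside 47.4% of all spots with a symbol, and 10 lower without overlap, beside 2.57%. The sum of its log2 levels ran from 136.9 to 148.3 in wild-type mice and from 123.5 to 128.5 in transgenic mice. None of its genes was at 0. Whether the number of natural killer cells differed was not tested.

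Of 14 other Klr receptors measured from the same gene complex, 5 fell and 0 rose. All 14 differences were negative, with a median of -1.46, but 9 did not pass, and Klri1 and Klrh1, both under the floor, differed by -0.16 and -0.15. Klre1, a partner of inhibitory and activating lectin receptors, differed by -2.99 (SE 0.26, limma adjusted p = 0.00742), and Klrb1a, an NKR-P1 receptor, by -2.58 (SE 0.22, limma adjusted p = 0.00742). Klrb1 differed by -2.61, Klri2 by -2.22 and Klrb1b by -1.88, with limma adjusted p from 0.0111 to 0.0185. The transgenic means of Klre1 (4.45) and Klrb1 (3.86) were under the floor, so their folds are bounds, at least 6.37 and 3.32. The calls of Klre1 and Klrb1a held with each 1 of the 8 arrays left out. Both were lost when mice of the same number were fitted as a block (limma adjusted p = 0.124 and 0.0806). The calls of Klri2, Klrb1 and Klrb1b were lost with that block too. Klrb1a, Klri2 and Klrb1 also lost their calls without both arrays numbered 4 (limma adjusted p = 0.0759, 0.0948 and 0.0948). Klri2 lost its call when either wild-type mouse 2 or transgenic mouse 3 was dropped (adjusted p up to 0.0554 in limma). Klrb1 lost it in those cases and when wild-type mouse 3 was dropped (up to 0.0714). Klrb1b lost it when any 1 of these mice or either mouse numbered 4 was dropped (up to 0.0898). Klrd1, named after its values were seen because it is the common partner of the NKG2 receptors, stood at 9.12 and 8.53 and did not pass (difference -0.58, limma adjusted p = 0.560).

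The molecules that carry Ly49 signals did not show the gap seen in the receptors. Of 16 measured partners of activating receptors, 0 passed (before adjustment, limma p was under 0.05 for 1 higher gene), and the median difference was 0.09. Lat, a scaffold of T cell and natural killer signalling, differed by 1.15 (SE 0.21, limma adjusted p = 0.119) and Zap70, a kinase of the same route, by 0.43 (SE 0.19, limma adjusted p = 0.557). Tyrobp and Hcst, the adaptor genes for activating receptors, were named after their values were seen: Tyrobp stood at 13.30 ± 0.74 and 13.34 ± 0.36, and Hcst at 9.71 ± 0.19 and 9.75 ± 0.43 (SD, n = 4 each). Both are also expressed in myeloid cells. Of 6 genes for phosphatases, kinases and an adaptor of inhibitory signalling 0 passed (0 at an unadjusted p under 0.05 in limma). Among these, Ptpn6, the phosphatase recruited by inhibitory receptors, differed by 0.28 (SE 0.27) and Ptpn11 by -0.15 (SE 0.12).

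The ligands were abundant in both groups. The log2 scale ends at 16, and whether genes close to that end, here or in other lists, were compressed was not checked. Of 14 MHC class I and peptide-loading genes, 0 passed and 0 had an unadjusted limma p under 0.05, with differences from -0.30 to 0.31. H2-K1, a classical class I gene, read 15.59 ± 0.14 and 15.30 ± 0.29 (SD, n = 4 each; difference -0.29, SE 0.17). Calr, a chaperone of class I assembly, differed by 0.31 (SE 0.14). H2-D1, named after its values were seen as the other classical class I gene, differed by 0.24 (SE 0.26). Of 18 regulators of Ly49 genes and of natural killer development 0 passed (before adjustment, limma p was under 0.05 for 1 lower gene and 4 higher genes). Tcf7, a transcription factor known to act on Ly49A expression, was the nearest, at 8.70 ± 0.23 and 9.55 ± 0.08 (SD, n = 4 each; difference 0.85, SE 0.15, limma adjusted p = 0.0910), with every transgenic mouse above every wild-type mouse. Il2rg, the common chain of interleukin receptors, differed by 0.65 (SE 0.24, limma adjusted p = 0.484).

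**Figure D4:**
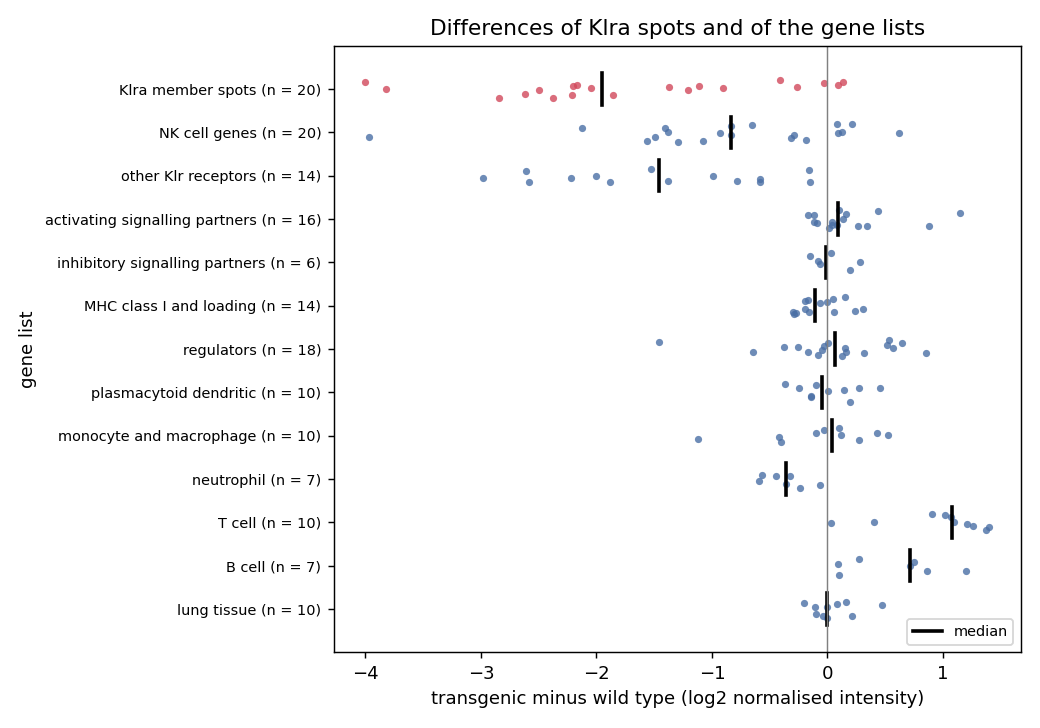
Points are transgenic minus wild-type differences (log2), in the top row for the 20 member spots and below for the brightest spot of each measured gene of 12 lists; the black line is the median of each row. The median is -1.95 for the member spots, -1.46 for other Klr receptors and -0.84 for natural killer cell genes, close to 0 for signalling partners, class I, plasmacytoid and monocyte lists, -0.36 for neutrophil genes and 1.08 for T cell genes.

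Markers of other cells that can carry Ly49 receptors were set beside the members. Of 10 plasmacytoid dendritic cell genes 0 passed (0 at an unadjusted limma p under 0.05; median -0.04), with Siglech at 15.15 ± 0.06 and 14.90 ± 0.40 and Tcf4 at 11.92 ± 0.25 and 12.12 ± 0.15 (SD, n = 4 each). Of 10 monocyte and macrophage genes 0 passed (before adjustment, limma p was under 0.05 for 1 gene each way; median 0.03), with Nr4a1 at -1.12 (SE 0.32) and Ccr2 at 0.52 (SE 0.18). Klra2 differed by -0.27 beside these lists. Of 7 neutrophil genes 0 passed (0 at an unadjusted p under 0.05 in limma; median -0.36), with Retnlg at -0.56 (SE 0.37) and Csf3r at -0.32 (SE 0.28).

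T cell genes stood the other way from the receptors. Of 10 measured 0 passed (before adjustment, limma p was under 0.05 for 7, all higher), all 10 differences were positive with a median of 1.08, and 7 were higher without overlap, against 3.7% of all spots with a symbol. Cd5 read 8.16 ± 0.40 and 9.57 ± 0.34 and Cd6 7.70 ± 0.49 and 8.91 ± 0.15 (SD, n = 4 each; limma adjusted p = 0.102 and 0.159). The sum of the T cell list's log2 levels ran from 68.9 to 81.4 in wild-type and from 84.4 to 88.9 in transgenic mice. Of 7 B cell genes 0 passed (1 higher at an unadjusted p under 0.05 in limma), with a median of 0.72. Ms4a1 differed by 1.19 (SE 0.51) and Cd79b by 0.75 (SE 0.40). None of these genes was at 0. What part the lymphocyte markers have in the levels of the Ly49 spots was not tested.

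The tissue label was checked on 10 lung genes. Sftpc and Scgb1a1, markers of alveolar type 2 and club cells, stood at the top of the intensity range in all 8 mice, where a difference cannot be seen. Of the 10 genes, 0 passed the threshold (0 at an unadjusted limma p under 0.05). Pecam1 differed by 0.48 (SE 0.27) and Cldn5 by 0.22 (SE 0.13). Over all spots with a symbol, the mean correlation with the other arrays of the own group ran from 0.974 (wild-type mouse 4) to 0.983, with transgenic mouse 4 at 0.978, and 56 spots passed the limma threshold, 21 lower and 35 higher.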

How the data were processed

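Lung RNA of 4 wild-type and 4 Fra-2 transgenic mice was labelled with Cy5 and read on single-colour Agilent arrays, per the labels' protocols. The authors deposited linear intensity values for 62976 spots. R 2.15.1 and limma 3.14.4 are listed in the submitters' processing notes, with no order of steps. The values share 1 distribution (median 26.6 on each array), as after quantile normalization; flags for background or saturation were not used here. The number of arrays limits the precision.

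Groups came from the sample titles. Symbols came from the platform annotation (31465 spots with 1 symbol, 31511 without one); for the gene lists they were updated through RefSeq accessions (29050 spots matched). The log2 intensity of every named spot was fitted with limma 3.58.1 in R 4.3.3 (lmFit, eBayes, group as the only term), with Benjamini-Hochberg adjustment over all these genes' spots and a threshold of 0.05. The test was checked on simulated data. Values were handled with data.table (version 1.17.8), Python 3.11.15 and pandas 2.3.3 and drawn with matplotlib 3.10.9. A fold is given where both group means reach the floor of 4.74; otherwise the dim group's arrays are raised to it and the fold is a bound. Named genes were all member spots, other Klra spots, up to 4 genes per list that passed (else the 2 smallest p), and the 8 genes most like the members within groups. Itga2, Klrb1b, Klrd1, Klri1, Klrh1, Eomes, Il2rb, Txk, Styk1, Tyrobp, Hcst, H2-D1, Sftpc and Scgb1a1 were added after their values were seen. Members and lists were chosen with earlier results of these data known. Alternatives were other scalings, offsets, filters, spot rules, variance models, a replicate block and each array left out.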

Additional observations from a re-analysis of the deposited data

Results flagged for a closer look

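In 12 of 120 groups of 4 mice checked, 1 mouse lay so far from the other 3 that its gap to the nearest, divided by the range of the group, was above Dixon's critical value for groups of that size; chance gives about 1 in 20 such groups. The clearest among the members was Klra1 in wild-type lung, with mouse 4 at 10.88 and the others at 6.34 to 7.08 (ratio 0.838). The brighter Klra17 spot had transgenic mouse 4 at 4.93 and the others at 4.56 to 4.62 (0.837), all close to the floor. Klra5 was marked in wild-type lung on 3 of its dim spots, with mouse 1 low at 3.88 (0.835) and at 3.41 (0.894) and mouse 4 low at 3.21 (0.837).

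Among genes of the lists, wild-type mouse 4 stood apart for Ptpn11, at 13.29 against 13.04 to 13.08 (0.845), and for Il2rg, at 8.46 against 9.28 to 9.39 (0.875). Transgenic mouse 4 stood apart for Ptpn6, at 11.36 against 10.95 to 11.00 (0.870), for Il2rg, at 10.14 against 9.61 to 9.65 (0.930), for Siglech, at 14.32 against 15.04 to 15.17 (0.851), for Csf3r, at 13.66 against 14.81 to 14.91 (0.916), and for Ms4a1, at 12.54 against 11.09 to 11.33 (0.834). The mouse numbered 4 was the one marked in 10 of the 12 groups.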

How the results depend on the processing

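The median difference of the member spots (-1.95) was -1.69 and -1.46 with offsets of 16 and 32 before the log2, -2.21 with spots at or above the floor alone (14 spots; also -2.21 with the 13 above it in both groups, a choice made after the data were seen), -2.29 with the brightest spot of each gene and -1.64 with the mean of all spots of each gene (10 genes each); with 1 array left out it ran from -2.10 to -1.77. The count lower without overlap was 7 of 10 with either rule of 1 value per gene, and 14 of 20 with any 1 array left out. Both rules counted Klra1 and Klra22 as separate genes, although RefSeq lists them as synonyms. The count of all spots past the threshold (56) was 120 and 128 with the offsets, 110 with the filter on dim spots, 147 with a trended robust variance and 139 with array weights, 32 without both arrays numbered 4, and 26 to 49 with 1 array left out. Deviations of same-numbered mice correlated at 0.14, -0.02, 0.14 and 0.08 over 21504 spots; 3 of 4 wild-type mice correlated best with their own number and wild-type mouse 2 with transgenic mouse 4, a weak hint from the data that was not taken as pairing. A replicate block left 6 spots past the threshold, 4 of them member spots, and 0 natural killer cell genes. The 2 natural killer cell genes past the threshold became 5 with the trended variance, 7 with array weights, 1 without both arrays numbered 4 and 1 to 2 with 1 array left out. Ptpn6 (0.28, not past the threshold) had a difference of -0.076 without both arrays numbered 4. Median centring and repeated quantile normalization left the median difference at -1.95, because the arrays already share 1 distribution. The median agreement of 0.55 ran from 0.31 (without wild-type mouse 1) to 0.63 with 1 array left out. Tcf7 and Cd5 passed with either offset, the dim filter, the trended variance or array weights; Lat and Cd6 passed with the trended variance. Signals near the floor limit the comparison for Klra17, Klra5, Klra10 and the dimmest Klra7, Klra8, Klra16 and Klra22 spots.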

Other observations

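Genes whose deviations within the groups were most like the mean deviation of the 14 brighter member spots were Aen (Pearson r = 0.97 over 8 arrays, 6 free deviations), Urb2 (0.97), Thoc1 (0.97), Tmem82 (0.97), Camk1g (0.96), Orc4 (0.96), Slc38a4 (0.96) and Utp4 (0.95). None of the 8 passed the test between the groups, and none is on the lists of natural killer cell genes. Of 21488 other spots with a symbol and a mean at or above the floor, 2.22% reached 0.8, as did 7 of the 14 member spots, which contribute to the mean they are compared with.

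Among natural killer cell genes the same measure had a median of 0.12, and 4 of 20 reached 0.5, beside 16.9% of the 21488 other spots. Il2rb was highest at 0.84, with Styk1 (under the floor) at 0.79, Txk at 0.62, Eomes at 0.55, Gzma at 0.38 and Ncr1 at 0.09. Among other Klr receptors the median was 0.38, and 4 of 14 reached 0.5. Klrb1 stood at 0.79, Klrb1b at 0.77 and Klrb1a at 0.66, but Klri2 at 0.37 and Klre1, with the largest fall, at 0.24. Gzma, the gene with the largest fall among the natural killer cell genes, had wild-type mice 1 and 4 as its lowest pair (12.56 and 12.52), while wild-type mouse 4 was the highest for the brightest Klra8, Klra4 and Klra22 spots. These are values from 8 arrays, and no cause was tested.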
